A study of Mus musculus with 8 samples.

Results

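The genes described here are the G1 cyclins, the kinases they activate and the inhibitors that hold those kinases back. The 10 genes, Ccnd1, Ccnd2, Ccnd3, Ccne1, Ccne2, Cdk4, Cdk6, Cdkn1b, Cdkn2a and Cdkn2b, were taken by symbol from a table of 24354 genes, and all 10 were found and had a mean FPKM of at least 1 in one or more groups. FPKM counts sequenced fragments relative to transcript kilobases and to 1000000 mapped fragments, and is thus a level corrected for transcript length and library depth, so that levels of different genes can be set side by side.

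Messenger RNA was sequenced from 4 kinds of mouse cells with 2 libraries each. Embryonic stem cells (ESC) were the E14 line, labelled wild type, grown with serum and LIF on mitotically inactivated C3H embryonic fibroblasts. Neural stem cells (NSC) came from heterozygous OG2+/- ROSA+/- mice, which carry an Oct4-GFP reporter and lacZ, and were grown with EGF and FGF2 on gelatin. Extended pluripotent stem cells (EPSC), labelled wild type, were derived from C57BL/6 8-cell embryos. They were kept in LCDM medium (N2B27 with minocycline, dimethindene maleate, CHIR99021 and human LIF) on C3H fibroblasts. Hybrid cells were made by fusing EPSCs with the OG2+/- ROSA+/- NSCs with polyethylene glycol, were selected as Oct4-GFP-positive cells, are labelled tetraploid and were grown like EPSCs in LCDM on C3H fibroblasts. The comparison asks which of their G1 genes the hybrid cells hold at the level of either fusion partner. Each group stands for 1 named cell line, and p-values measure only the spread between its libraries. The study describes a value from these libraries as coming from independent experiments, while the labels do not say whether the libraries of a group came from separate cultures. Cell type, medium, feeder layer, genetic background and, for hybrid cells, ploidy differ together between groups and cannot be told apart. The labels of the EPSC and hybrid libraries also carry different tags that read like passage numbers. Such a difference cannot be told apart from cell type. In bulk RNA, fewer cells of a type and less RNA per cell cannot be told apart either.

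In the G1 phase a cell commits itself to another round of division. D-type cyclins, whose transcription follows growth factor signals, activate CDK4 and CDK6, and E-type cyclins activate CDK2. Both kinds of kinase phosphorylate the retinoblastoma protein and its relatives and so release E2F transcription factors, which switch on S-phase genes. INK4 proteins, among them p16Ink4a from Cdkn2a and p15Ink4b from Cdkn2b, block CDK4 and CDK6, whereas p27Kip1 from Cdkn1b binds cyclin-CDK complexes and restrains CDK2. Mouse embryonic stem cells are known for a short G1 phase with high cyclin E-CDK2 activity, and neural stem cells for their dependence on D-type cyclins.

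The groups carried the markers of their labels. The summed level of 6 pluripotency markers lay between 4138 and 5035 FPKM in the ESC, EPSC and hybrid libraries and at 117 and 120 FPKM in NSCs, where Sox2 made up nearly all of it and 3 of the 6 were listed at 0. The 8 neural stem cell markers summed to 3424 and 3354 FPKM in NSCs and to between 9.83 and 13.4 FPKM elsewhere. The 10 fibroblast markers summed to 12.4 and 13.7 FPKM in ESCs, while NSCs had 7.44 and 8.93, EPSCs 86.6 and 83.6 and hybrid cells 331 and 247. Among these markers is Postn, which the study also counts among its EPSC-specific genes. Depth worked out from the steps between low FPKM values was 21920000 to 32600000 fragments a library, at which 3 fragments on a transcript of 2 kb correspond to 0.0460 to 0.0684 FPKM. The lowest level of any of the 10 genes, 0.520 FPKM of Cdk6 in an NSC library, was above that floor. Counted on the shortest annotated transcript of a gene, 3 fragments correspond to 0.364 FPKM for Cdk6 and 1.19 for Ccnd2, close to their lowest levels of 0.520 and 1.56 FPKM.

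Differences were tested with limma on log2(FPKM + 1) in 1 fit of all 8 libraries over the 13239 genes with a mean of at least 1 FPKM in some group, with Benjamini-Hochberg adjustment over all of them. A gene was called at an adjusted p under 0.05. Fold changes on this scale understate the change of low genes such as Cdk6 in NSCs. Levels below are given for the first and the second library of a group, and ± is the SD over these 2 libraries.

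Most of the 10 genes separated NSCs from the other cells, which held for most genes of the table too. Between hybrid cells and NSCs, 4 of the 10 genes were called higher in hybrid cells and 4 lower, where 44.5% of all genes tested were called higher and 42% lower. Between EPSCs and NSCs, 3 were higher in EPSCs and 6 lower, against 45.2% and 41% of all genes. Between ESCs and NSCs, 3 were higher in ESCs and 6 lower, against 42.8% and 41.9%. With calls this common, the size of a difference tells more than the call. In each of these comparisons 6 of the 10 genes had a mean over 3 FPKM in 1 group and a ratio of means over 3, which 29%, 28.8% and 27.6% of all genes had in hybrid cells, EPSCs and ESCs against NSCs. Leaving out the first ESC library made it 5 genes for ESCs against NSCs. The 3 comparisons share the NSC libraries. The median log2 fold change of the 10 genes was -0.09, -0.62 and -0.64 in hybrid cells, EPSCs and ESCs against NSCs, where the median over all genes was 0.06, 0.08 and 0.03.

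**Figure D1:**
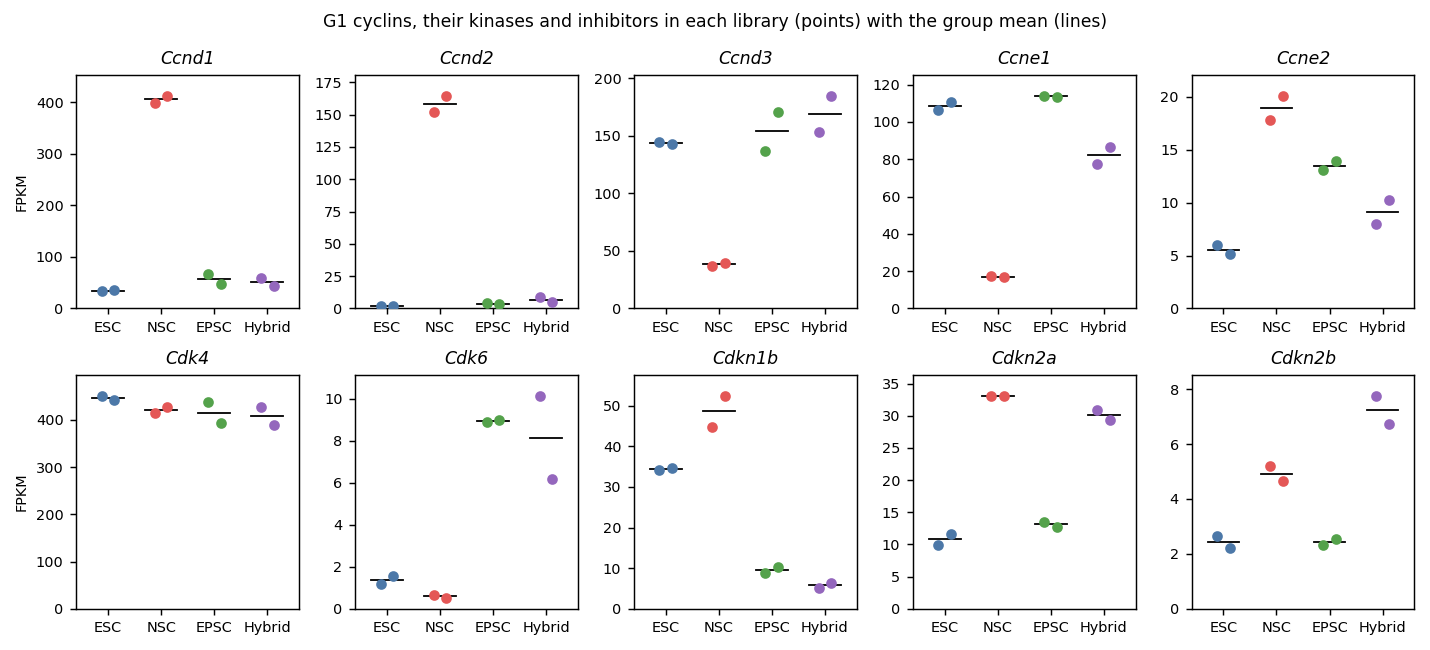
FPKM (linear axes from 0, each panel with its own scale) of the 10 genes in the 2 libraries of each group, with black lines at the group means. Ccnd1 and Ccnd2 are high in NSCs alone (means of 405 and 159 FPKM), Ccnd3 and Ccne1 are low in NSCs alone (38.5 and 17.1 FPKM), and Cdk4 stays between 390 and 450 FPKM in all 8 libraries.

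The D-type cyclin genes divided NSCs from the pluripotent cells. Ccnd1, at chr7:144929931-144939831 (GRCm38), stood at 399 and 412 FPKM in NSCs, while ESCs had 34.5 and 35.1, EPSCs 67.5 and 47.9 and hybrid cells 58.7 and 42.8. NSCs were far above all other libraries, and hybrid cells overlapped with EPSCs. The log2 fold change was -2.99 ± 0.18 (SE; adjusted p = 1.7e-06) in hybrid cells against NSCs and -0.18 ± 0.18 (adjusted p = 0.452) against EPSCs. EPSCs were above ESCs by 0.69 ± 0.18 (adjusted p = 0.0121), and hybrid cells above ESCs by 0.51 ± 0.18 (adjusted p = 0.0370). Both of these calls were weak. The former was lost without either ESC library or without the first EPSC library (adjusted p of 0.0642, 0.0564 and 0.0595). The latter was lost without either ESC library (0.132 and 0.117), either NSC library (0.0757 and 0.0747) or the first hybrid library (0.201), and with no filter on low genes (0.0724).

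Ccnd2, at chr6:127125162-127152188, had the largest log2 fold change of the 10 genes against NSCs in hybrid cells, EPSCs and ESCs alike. It stood at 152 and 165 FPKM in NSCs, while ESCs had 1.59 and 1.56, EPSCs 4.05 and 3.42 and hybrid cells 8.52 and 5.33. The 4 groups did not overlap, and they fell in the order NSC, hybrid, EPSC, ESC, with every neighbouring pair called. Hybrid cells were below NSCs by a log2 fold change of -4.36 ± 0.18 (adjusted p = 2.1e-07) and above EPSCs by 0.72 ± 0.18 (adjusted p = 0.0147). Leaving out single libraries moved the latter between 0.42 and 1.01. The call against EPSCs was lost without the second EPSC library (0.62, adjusted p = 0.0688) and in a fit of these 2 groups alone (adjusted p = 0.0529). The higher of the hybrid libraries was the one with more fibroblast marker RNA, 331 against 247 FPKM. The part of feeder RNA in the difference between hybrid cells and EPSCs was not tested.

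Ccnd3, at chr17:47505051-47599689, ran the other way. It stood at 37.3 and 39.7 FPKM in NSCs, while ESCs had 145 and 143, EPSCs 137 and 171 and hybrid cells 153 and 185. The NSC libraries were the lowest, and the other 3 groups were not called apart from each other in any pair. Hybrid cells were above NSCs by 2.10 ± 0.12 (log2; adjusted p = 1.2e-06). The difference between hybrid cells and EPSCs was 0.14 ± 0.12 (adjusted p = 0.390), and that between hybrid cells and ESCs, 0.22 ± 0.12 (adjusted p = 0.136), was called without the first hybrid library (0.36, adjusted p = 0.0437).

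These opposite differences changed which D-type cyclin RNA prevailed. The 3 genes summed to 602 ± 19.9 FPKM in NSCs, while ESCs had 180 ± 1.09, EPSCs 215 ± 9.44 and hybrid cells 227 ± 8.97. Ccnd1 made up 67.8 and 66.8% of that sum in the NSC libraries, Ccnd2 25.9 and 26.7%, and Ccnd3 6.33 and 6.44%. In ESCs, Ccnd3 made up 80.0 and 79.6%, Ccnd1 19.1 and 19.5%, and Ccnd2 0.881 and 0.870%. EPSCs held 65.7 and 76.9% Ccnd3, 32.4 and 21.6% Ccnd1, and 1.94 and 1.54% Ccnd2. Hybrid cells held 69.5 and 79.4% Ccnd3, 26.7 and 18.4% Ccnd1, and 3.87 and 2.29% Ccnd2. No Ccnd3 share of a hybrid, EPSC or ESC library overlapped with those of NSCs. With 2 libraries a group, the exact permutation test (two-sided) of a share cannot go below p = 0.333, which is the value it gave for Ccnd3 in hybrid cells against NSCs (68.0 percentage points higher). For hybrid cells against EPSCs the Ccnd3 share was 3.12 percentage points higher (exact p = 0.667), and their libraries overlapped. In all, 30 such comparisons of shares were made, and none could pass 0.05.

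**Figure D2:**
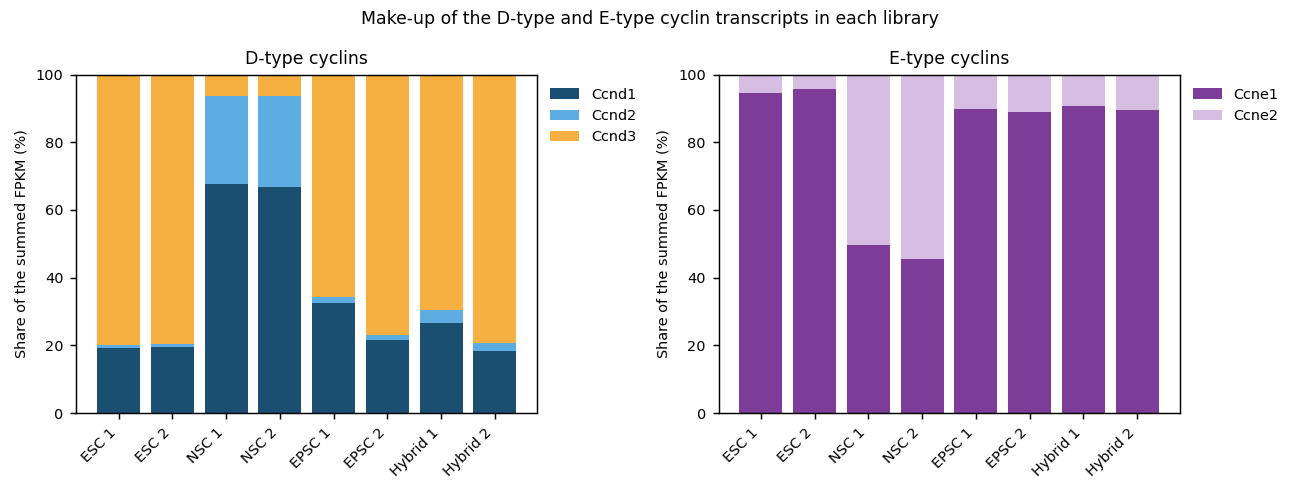
Stacked bars of the share (%, axis from 0 to 100) of each D-type cyclin gene in their summed FPKM, and of each E-type cyclin gene in theirs, for each of the 8 libraries. Ccnd3 takes 65.7 to 80.0% outside NSCs and 6.33 to 6.44% in NSCs, and Ccne1 takes 89.1 to 95.6% outside NSCs and 45.5 to 49.5% in NSCs.

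The E-type cyclins also differed in make-up. Ccne1, at chr7:38097984-38107490, stood at 17.5 and 16.8 FPKM in NSCs, while ESCs had 106 and 110, EPSCs 114 and 113 and hybrid cells 77.7 and 86.4. Hybrid cells lay well above NSCs but below every ESC and EPSC library. Their log2 fold change was 2.2 ± 0.06 (adjusted p = 3.7e-08) against NSCs, -0.47 ± 0.06 (adjusted p = 0.00140) against EPSCs and -0.40 ± 0.06 (adjusted p = 0.00101) against ESCs. EPSCs and ESCs, the neighbours at the top of the order, differed by 0.07 ± 0.06 (adjusted p = 0.374).

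Ccne2, at chr4:11190433-11204779, was the E-type cyclin gene that NSCs held higher. Its level was 17.8 and 20.1 FPKM in NSCs, while EPSCs had 13.1 and 13.9, hybrid cells 7.95 and 10.2 and ESCs 6.00 and 5.10. The groups did not overlap, and hybrid cells lay below both fusion partners. Hybrid cells differed from EPSCs by -0.53 ± 0.13 (log2; adjusted p = 0.0131), a call that was lost without the second EPSC library (-0.49, adjusted p = 0.0558). EPSCs were 1.15 ± 0.13 above ESCs (adjusted p = 2.3e-04) and 0.46 ± 0.13 below NSCs (adjusted p = 0.0102), the latter lost without the second NSC library (adjusted p = 0.0827). The FPKM of Ccne1 over that of Ccne2 was 0.980 and 0.833 in NSCs, while ESCs had 17.7 and 21.6, EPSCs 8.69 and 8.14 and hybrid cells 9.77 and 8.44.

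Of the kinases that D-type cyclins activate, CDK4 came from an RNA near the top of the range in every group. Cdk6 RNA lay near the middle in EPSCs and hybrid cells, above or level with 49.9 and 47.3% of the genes tested, and low in ESCs (19.0%) and NSCs (12.9%). Cdk4, at chr10:127063535-127067288, stood at 450 and 442 FPKM in ESCs, while NSCs had 414 and 426, EPSCs 437 and 393 and hybrid cells 427 and 390. That level was above 98.4 to 99.1% of the genes tested in each group. It was called in none of the 6 comparisons, with log2 fold changes between -0.13 and 0.09. This flat level against NSCs belongs to FPKM as deposited. FPKM sums were 415240 and 415412 in NSCs and 600674 to 653796 in the other libraries, and scaling every library to a sum of 1000000 moved the median log2 fold change over all genes to -0.50, -0.48 and -0.46 in hybrid cells, EPSCs and ESCs against NSCs. With that scaling Cdk4 was called lower than in NSCs in all 3, by -0.66, -0.63 and -0.47, and it was also called lower than in ESCs in EPSCs (-0.17) and hybrid cells (-0.20). Quantile normalization, which left the median over all genes at 0.06, 0.07 and 0.06, also called Cdk4 lower than in NSCs, by -0.84, -0.82 and -0.45. It gave -0.37 in EPSCs and -0.38 in hybrid cells against ESCs, both called. For hybrid cells against NSCs, scaling to a sum of 1000000 turned 5893 genes called higher and 5556 called lower into 4244 and 8055.

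Cdk6, at chr5:3341004-3531008, separated EPSCs and hybrid cells from the rest. It stood at 8.90 and 8.98 FPKM in EPSCs, while hybrid cells had 10.1 and 6.16, ESCs 1.17 and 1.54 and NSCs 0.664 and 0.520. Hybrid cells and EPSCs overlapped, and both were above ESCs and NSCs in every library. EPSCs were above ESCs by 2.08 ± 0.19 (log2; adjusted p = 1.1e-04), and hybrid cells above NSCs by 2.49 ± 0.19 (adjusted p = 7.5e-06). Hybrid cells and EPSCs differed by -0.16 ± 0.19 (adjusted p = 0.551), though without the first hybrid library they were called lower (-0.47, adjusted p = 0.0236). ESCs were called above NSCs (0.56 ± 0.19, adjusted p = 0.0262), and 6 alternatives ended that call, among them leaving out the second ESC library or either NSC library (adjusted p of 0.142, 0.0745 and 0.135). Cdk6 made up 2.11 ± 0.170% of the summed Cdk4 and Cdk6 RNA in EPSCs, while hybrid cells had 1.94 ± 0.536%, ESCs 0.304 ± 0.0625% and NSCs 0.141 ± 0.0270%. The fibroblast marker sum was also highest in the hybrid and EPSC libraries, and its part in the Cdk6 level was not tested.

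The inhibitor genes did not follow a single order. Cdkn1b, at chr6:134920401-134925525, stood at 44.8 and 52.4 FPKM in NSCs, while ESCs had 34.1 and 34.5, EPSCs 8.75 and 10.3 and hybrid cells 5.20 and 6.27. The groups did not overlap, and all neighbours in the order NSC, ESC, EPSC, hybrid were called. EPSCs were below ESCs by a log2 fold change of -1.75 ± 0.11 (adjusted p = 2.4e-05), and hybrid cells below EPSCs by -0.64 ± 0.11 (adjusted p = 0.00386). The difference of hybrid cells from NSCs was -2.88 ± 0.11 (adjusted p = 1.8e-07). Like Ccne2, Cdkn1b was lower in both hybrid libraries than in any library of either fusion partner, which 16.2% of all genes tested were.

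Cdkn2a was one of the genes called higher in hybrid cells than in EPSCs. At chr4:89274473-89294619 it encodes p16Ink4a and, from another first exon and reading frame, p19Arf, a protein that stabilises p53. The deposited level is 1 value for the gene and does not separate them. Cdkn2a stood at 33.0 FPKM in both NSC libraries, 13.5 and 12.7 in EPSCs, 9.97 and 11.6 in ESCs, and 30.9 and 29.3 in hybrid cells. The hybrid libraries lay just under NSCs and more than 2-fold above every EPSC and ESC library. The log2 fold change of hybrid cells was 1.14 ± 0.08 (adjusted p = 1.4e-04) against EPSCs, 1.40 ± 0.08 (adjusted p = 9.0e-06) against ESCs, and -0.13 ± 0.08 (adjusted p = 0.154) against NSCs. With every library scaled to 1 sum the last became -0.74 (adjusted p = 7.0e-05), where the median gene was at -0.50, and quantile normalization gave -0.31 (adjusted p = 0.00598). EPSCs were called above ESCs by 0.26 ± 0.08 (adjusted p = 0.0219), and this was lost without the first ESC library (0.147) or the first EPSC library (0.0937) and with the scaling (0.0670).

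Cdkn2b, the neighbouring gene at chr4:89306289-89311032, reached its highest level in hybrid cells. It stood at 7.74 and 6.74 FPKM in hybrid cells, while NSCs had 5.19 and 4.66, EPSCs 2.33 and 2.53 and ESCs 2.64 and 2.21. Both hybrid libraries were above all libraries of both fusion partners, as 18.7% of all genes tested were, while EPSCs and ESCs overlapped. Hybrid cells were above EPSCs by 1.26 ± 0.10 (log2; adjusted p = 2.6e-04) and above NSCs by 0.48 ± 0.10 (adjusted p = 0.00324). The direction against NSCs turned with every library scaled to 1 sum (-0.06, adjusted p = 0.637), whereas that against EPSCs did not. EPSCs and ESCs differed by 0.01 ± 0.10 (adjusted p = 0.972).

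Fibroblast marker RNA moved with the rise of both INK4 genes from EPSCs to hybrid cells. All 10 fibroblast markers were called higher in hybrid cells than in EPSCs, with a median log2 fold change of 1.61, and none was at 0 in a hybrid or EPSC library. Their sum was 86.6 and 83.6 FPKM in EPSCs and 331 and 247 FPKM in hybrid cells. In NSCs, grown without feeders, it was 7.44 and 8.93 FPKM while Cdkn2a was at 33.0 FPKM. Prrx1 made up 6.36 and 7.70 FPKM of that NSC sum. From ESCs to EPSCs the sum rose from 12.4 and 13.7 to 86.6 and 83.6 FPKM. Over the same pair of groups Cdkn2b stayed between 2.21 and 2.64 FPKM, while Cdkn2a went from 10.8 ± 1.14 to 13.1 ± 0.538 FPKM, the weak call given above (adjusted p = 0.0219). Since the study counts Postn, a member of the list, as EPSC-specific, the marker sum is not a measure of feeder RNA alone. How much of the sum came from feeder cells was not tested. The part of feeder RNA in the levels of Cdkn2a and Cdkn2b in hybrid cells was not tested either.

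**Figure D3:**
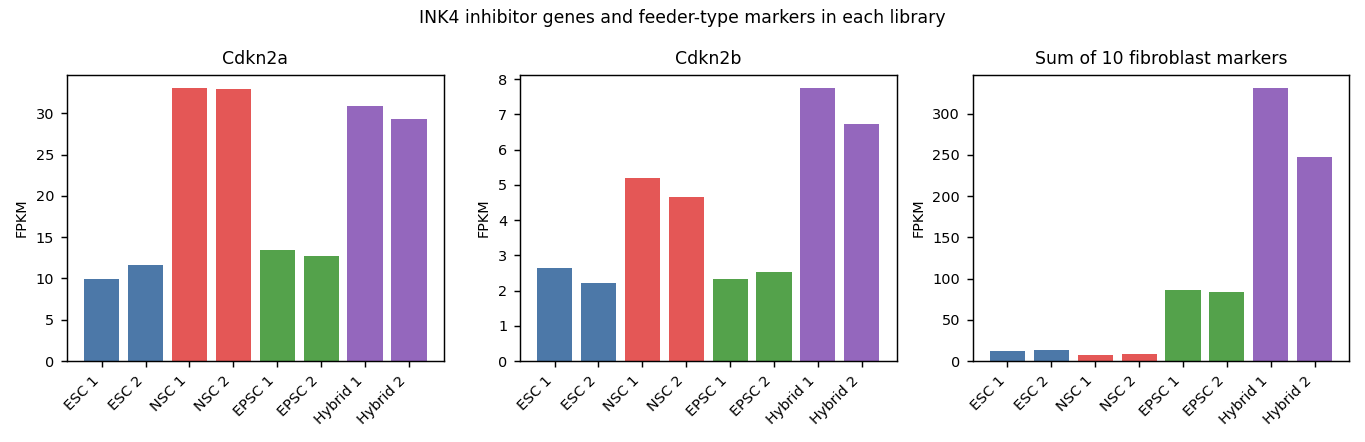
Bars (axes from 0, FPKM) of Cdkn2a, Cdkn2b and the sum of 10 fibroblast marker genes in each of the 8 libraries. Hybrid cells carry 29.3 to 30.9 FPKM of Cdkn2a and 6.74 to 7.74 FPKM of Cdkn2b, and are also highest in the marker sum (247 and 331 FPKM), whereas NSCs are high in Cdkn2a and lowest in the marker sum.

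The sequence before each start of Cdkn2a is shown, with that of Cdkn2b, because these inhibitor genes are the ones hybrid cells held above EPSCs, and because the 2 starts of Cdkn2a, 12.4 kb apart, share the 1 level in the table. The sequences are the 250 bases before the start on the minus strand, from RefSeq (GRCm38.p6). Capitals mark TTTNNCGC, a short form of the E2F site, on either strand.
Cdkn2a, upstream start, chr4:89294620-89294869: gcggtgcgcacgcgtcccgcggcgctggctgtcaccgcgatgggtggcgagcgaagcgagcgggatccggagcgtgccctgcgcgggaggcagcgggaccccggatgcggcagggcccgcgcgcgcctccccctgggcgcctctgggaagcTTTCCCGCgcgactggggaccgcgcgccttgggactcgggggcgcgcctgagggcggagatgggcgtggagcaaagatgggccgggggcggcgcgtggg
Cdkn2a, downstream start, chr4:89282193-89282442: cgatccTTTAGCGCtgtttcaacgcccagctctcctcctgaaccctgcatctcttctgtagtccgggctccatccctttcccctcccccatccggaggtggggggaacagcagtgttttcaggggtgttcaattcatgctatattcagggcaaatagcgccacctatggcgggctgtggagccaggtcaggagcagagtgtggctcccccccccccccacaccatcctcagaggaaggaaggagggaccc
Cdkn2b, chr4:89311033-89311282: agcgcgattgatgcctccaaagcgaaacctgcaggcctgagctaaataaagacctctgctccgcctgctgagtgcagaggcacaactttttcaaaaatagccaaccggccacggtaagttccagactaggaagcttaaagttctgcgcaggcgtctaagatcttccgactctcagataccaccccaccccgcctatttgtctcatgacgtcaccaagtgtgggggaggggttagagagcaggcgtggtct
The match began 99 bases before the upstream start of Cdkn2a and 244 bases before the downstream one, and these letters were not in the Cdkn2b window. TTTNNCGC was in 5.17% of 32851 RefSeq promoter windows of 250 bases before to 50 after a start. Of the 10 genes, 7 had windows there, 9 in all, and Cdk6 was the other gene with a match. Ccnd1, Ccnd2 and Ccne2 were not matched to a window.

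Cdk4 is shown as the gene that was called in no comparison of the deposited levels. Capitals mark CACGTG, the E-box bound by MYC and related factors, which reads the same on both strands.
Cdk4, plus strand, chr10:127063285-127063534: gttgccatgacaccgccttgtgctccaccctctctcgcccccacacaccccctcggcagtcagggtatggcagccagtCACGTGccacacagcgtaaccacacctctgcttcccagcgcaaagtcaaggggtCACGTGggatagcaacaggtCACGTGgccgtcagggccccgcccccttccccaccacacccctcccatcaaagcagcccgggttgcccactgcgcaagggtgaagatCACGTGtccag
The 4 matches began 172, 118, 98 and 11 bases before the start. CACGTG was in 7.15% of all windows, 4 or more times in 8 of the 32851 (0.0244%), and in Cdk6 as the other matched gene with one. CTTTGAT or CTTTGTT, read on both strands for TCF/LEF factors, was in 9.33% of windows and in Cdk4 alone of the 7 genes. TTCNNNGAA, read for STAT factors, was in 8.30% of windows and in none of the 7.

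Against EPSCs, the fusion partner whose culture they share, hybrid cells were called higher in 3 of the 10 genes (Ccnd2, Cdkn2a and Cdkn2b) and lower in 3 (Ccne1, Ccne2 and Cdkn1b). Among all genes tested 22.5% were called higher and 21.9% lower. None of the 10 passed a mean over 3 FPKM with a ratio over 3, which 1.59% of all genes did, though Cdkn2b, with a ratio of 2.98, passed when the second EPSC library or the second hybrid library was left out. The median log2 fold change of the 10 genes was -0.09, and that of all genes 0.00. The 4 genes not called were Ccnd1, Ccnd3, Cdk4 and Cdk6, and in each of them the hybrid and EPSC libraries overlapped. Without the second EPSC library the count of 6 called genes became 4.

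**Figure D4:**
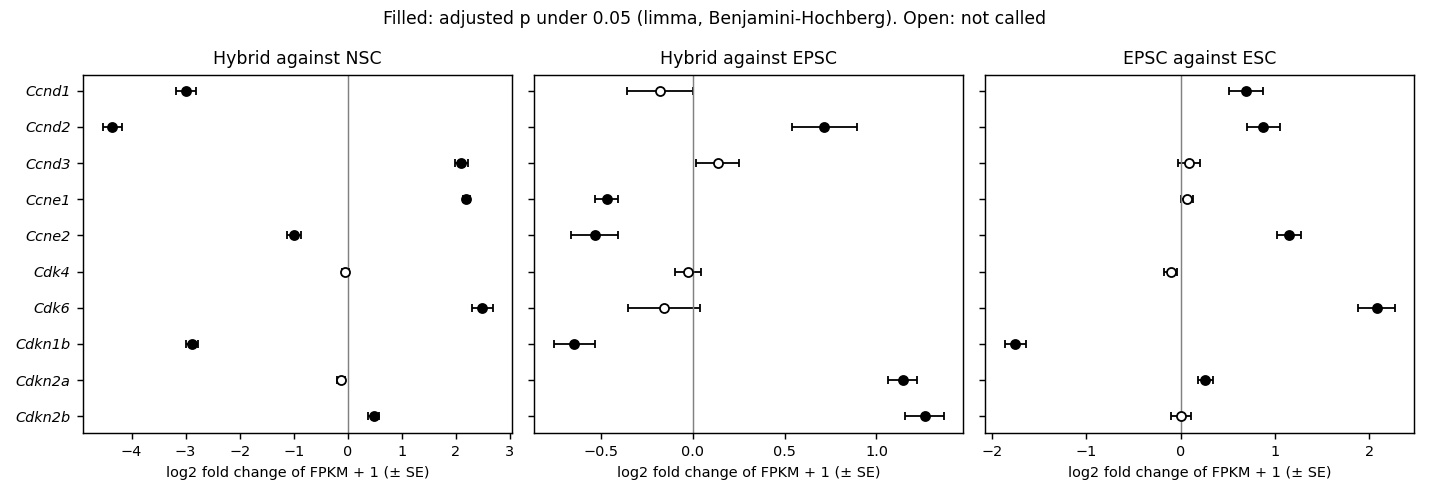
log2 fold change of FPKM + 1 with its SE (bars) for each of the 10 genes in hybrid cells against NSCs, hybrid cells against EPSCs, and EPSCs against ESCs, with filled points for an adjusted p under 0.05 and open points for genes not called. The horizontal axes differ, as the changes against NSCs run from -4.36 to 2.49 and those against EPSCs from -0.64 to 1.26.

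For 7 of the 10 genes EPSCs and NSCs differed by at least 1 on the log2 scale, so that the hybrid level could be placed between them, with NSCs at 0 and EPSCs at 1. Ccnd1 (1.06), Ccnd3 (1.07) and Cdk6 (0.94) lay close to the EPSC level. Ccnd2 (0.86) and Ccne1 (0.82) lay a little on the NSC side of it, and Cdkn1b (1.29) beyond it. Cdkn2a, at 0.10, lay next to NSCs. Over the 6225 genes that could be placed the median was 0.97 and the quartiles were 0.83 and 1.08, so Cdkn2a and Cdkn1b fell outside that middle range, and Ccne1 just outside it. With every library scaled to 1 sum the position of Cdkn2a became 0.39 and that of Ccne1 0.77.

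**Figure D5:**
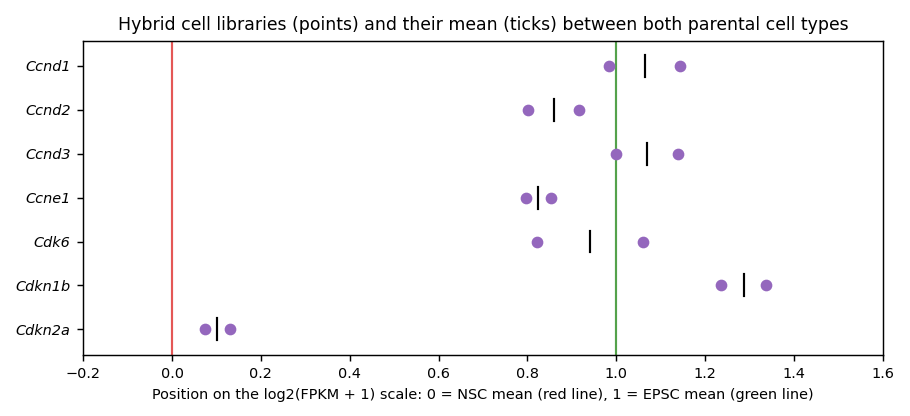
Position of each hybrid library (points) and of the hybrid mean (ticks) on the log2(FPKM + 1) scale between the NSC mean (0, red line) and the EPSC mean (1, green line) for the 7 genes whose parental levels differed by at least 1. Cdkn2a lies at 0.07 and 0.13, next to the NSC line, and the other 6 genes lie between 0.80 and 1.34.

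EPSCs and ESCs are both pluripotent cells from early embryos, of different lines and kept in different media. Of the 10 genes, 5 were called higher in EPSCs (Ccnd1, Ccnd2, Ccne2, Cdk6 and Cdkn2a) and 1 lower (Cdkn1b), against 33.7% higher and 27.3% lower of all genes tested. Without the first EPSC library or the first ESC library the 6 called genes became 4. Of the 10 fibroblast markers, EPSCs had 9 called higher against ESCs (median on the log2 scale 2.43), and their part in the rises of the 5 genes was not tested. The genes with a mean over 3 FPKM and a ratio over 3 were Cdk6 and Cdkn1b, as were 4.72% of all genes. Cdk6 was higher in EPSCs with 8.94 ± 0.0565 FPKM against 1.36 ± 0.263, and Cdkn1b was lower with 9.50 ± 1.06 FPKM against 34.3 ± 0.296. Hybrid cells against ESCs had 6 genes called higher and 2 lower, where 35.3% and 30.2% of all genes were, and 3 passed that fold and level rule (Ccnd2, Cdk6 and Cdkn1b), where 6.68% did. Cdkn2b, at a ratio of 2.99, was just under it. All 10 fibroblast markers were called higher in this comparison as well (median on the log2 scale 4.19), and their part in it was not tested. The median log2 fold change of the 10 genes was 0.18 in EPSCs and 0.57 in hybrid cells against ESCs, where that of all genes was 0.04 in both. Ccne1 and Cdkn1b were the genes called lower in hybrid cells than in ESCs.

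Of 5 other genes with CDK inhibitor symbols (Cdkn1a, Cdkn1c, Cdkn2c, Cdkn2d and Cdkn3), hybrid cells were called higher than NSCs in 1 and lower in 3. The median log2 fold change was -1.27, the value of Cdkn3. Among all genes tested 44.5% were called higher and 42% lower. Between hybrid cells and EPSCs limma called 0 of the 5, where 22.5% of all genes were called higher and 21.9% lower. Of the 5, 2 were at an unadjusted p under 0.05, the median was -0.20, and 1 was called lower with either other scaling. Cdkn2c, which encodes the INK4 protein p18Ink4c, was at 77.7 ± 1.04 FPKM in NSCs, while hybrid cells had 0.766 ± 0.344, EPSCs 0.557 ± 0.0545 and ESCs 0.544 ± 0.0761. It thus parted from Cdkn2a, which in the levels as deposited was near the NSC level in hybrid cells. Cdkn1c, which encodes p57Kip2, was the one higher in hybrid cells, with 3.41 ± 0.410 FPKM against 0.878 ± 0.203 in NSCs. Cdkn1a, the p53 target gene of p21Cip1, stood at 85.8 ± 15.8 FPKM in hybrid cells, while EPSCs had 69.2 ± 16.8, NSCs 109 ± 7.17 and ESCs 27 ± 0.449.

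The retinoblastoma family and E2F genes, which the G1 kinases act on, had more genes called lower than higher outside NSCs, also with libraries scaled to 1 sum or quantile-normalized. Of 13 such genes, hybrid cells were called higher than NSCs in 2 and lower in 11, EPSCs higher in 3 and lower in 8, and ESCs higher in 2 and lower in 7. Over all genes tested 44.5%, 45.2% and 42.8% were called higher and 42%, 41% and 41.9% lower. The 7 of 13 lower in ESCs is not far from that last share. The median log2 fold changes were -0.71, -0.53 and -0.42. Rb1, the retinoblastoma gene itself, was at 18.5 ± 1.29 FPKM in NSCs, while hybrid cells had 2.35 ± 0.0665, EPSCs 2.18 ± 0.107 and ESCs 3.75 ± 0.111. Rbl2, the gene of the related pocket protein p130, was at 10.6 ± 0.133 FPKM in NSCs and 2.07 ± 0.156 in hybrid cells. E2f4, an E2F factor that works mainly as a repressor with pocket proteins, went the other way, with 28.4 ± 0.593 FPKM in NSCs and 93.5 ± 4.20 in hybrid cells. Between hybrid cells and EPSCs, 1 of the 13 was called higher (E2f1, log2 fold change 0.29) and 4 lower, among them E2f3 (-0.69). In that comparison 22.5% of all genes tested were called higher and 21.9% lower. The E2f1 call (adjusted p = 0.0443) was lost with libraries scaled to 1 sum.

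Partners and regulators of CDK2, the kinase of the E-type cyclins, were counted in the same way, as were the lists that follow. Their counts are to be read beside the shares of all genes called in hybrid cells, 44.5% higher and 42% lower against NSCs and 22.5% and 21.9% against EPSCs. These shares belong to the levels as deposited. With libraries scaled to 1 sum, more genes of the table were called lower than higher against NSCs, as given with Cdk4. Of 8 genes in hybrid cells, 5 were called higher and 2 lower against NSCs (median log2 fold change 0.58), with 5 and 2 (0.50) under quantile normalization, but 2 higher and 3 lower (-0.01) with libraries scaled to 1 sum. Against EPSCs, limma called 0 higher and 2 lower, and 0 were higher at an unadjusted p under 0.05. Cdk2 was at 67.3 ± 1.87 FPKM in hybrid cells, while EPSCs had 63.7 ± 1.89, ESCs 42.3 ± 1.66 and NSCs 40.1 ± 2.91. Cdc25b, a phosphatase of the mitotic CDKs, had the largest change of the 8 against NSCs, from 34.4 ± 0.414 FPKM to 4.59 ± 0.868 in hybrid cells. Mnat1, a subunit of the CDK-activating kinase, was at 9.39 ± 1.18 FPKM in NSCs and 34.9 ± 3.25 in hybrid cells. Cdc25a, the phosphatase that activates CDK2, was at 12.9 ± 1.40 FPKM in NSCs and 48.9 ± 4.0 in hybrid cells. Among 11 genes for the breakdown of cyclins and p27, hybrid cells had 8 called higher and 2 lower against NSCs (median 0.49), with 6 and 2 (0.28) under quantile normalization, but 3 higher and 5 lower (-0.10) with libraries scaled to 1 sum. Against EPSCs they had 2 higher and 7 lower (median -0.23). Cks2, a small CDK-binding protein, was at 102 ± 0.589 FPKM in NSCs and 241 ± 15.6 in hybrid cells. Fbxo5, which encodes the APC/C inhibitor EMI1, was at 24.3 ± 0.930 FPKM in NSCs and 54.8 ± 3.45 in hybrid cells. Skp2, the F-box protein that marks p27 for breakdown, was at 20.9 ± 1.70 FPKM in NSCs, while ESCs had 31.6 ± 1.35, EPSCs 30.7 ± 1.13 and hybrid cells 26.1 ± 0.777.

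Genes of the later cell cycle were compared too. Of 5 S, G2 and M cyclin genes with Cdk1, hybrid cells had 4 called higher and 1 lower against NSCs (median log2 fold change 0.89), and 3 higher and 2 lower with either other scaling. Against EPSCs limma called 0 higher and 2 lower (median -0.10), and 0 were higher at an unadjusted p under 0.05. Ccnb1, the cyclin of mitotic entry, was at 102 ± 2.34 FPKM in NSCs, while ESCs had 221 ± 0.555, EPSCs 240 ± 3.25 and hybrid cells 197 ± 6.20. Of 8 proliferation markers, hybrid cells had 5 called higher and 2 lower against NSCs (median 0.83). With libraries scaled to 1 sum this became 5 higher and 3 lower (median 0.22), and with quantile normalization 4 higher and 3 lower (0.24). Against EPSCs they had 2 higher and 2 lower (median 0.07). Mki67, the gene of the Ki-67 antigen, was highest in NSCs, at 102 ± 2.36 FPKM, against 35.4 ± 4.15 in hybrid cells. Aurka, a kinase of the mitotic spindle, went the other way, with 48.2 ± 2.53 FPKM in NSCs and 137 ± 1.09 in hybrid cells.

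Of 15 known upstream regulators of the 10 genes, hybrid cells had 10 called higher and 4 lower against NSCs (median log2 fold change 0.93), and 7 higher and 5 lower with libraries scaled to 1 sum. Against EPSCs they had 4 higher and 4 lower (median 0.05). Lin28a, an RNA-binding protein of pluripotent cells, was at 0.0212 ± 0.0149 FPKM in NSCs and 107 ± 49.5 in hybrid cells. Mycn, a relative of Myc, was at 1.15 ± 0.0487 FPKM in NSCs and 36.2 ± 11.9 in hybrid cells. Bmi1, a Polycomb protein known to repress Cdkn2a, was at 40.7 ± 2.28 FPKM in NSCs, while hybrid cells had 5.27 ± 1.32, EPSCs 4.51 ± 0.220 and ESCs 4.17 ± 0.0282. Cbx7, another Polycomb protein known to repress that gene, was at 2.34 ± 0.230 FPKM in NSCs, while ESCs had 86.5 ± 0.0668, EPSCs 58.4 ± 0.589 and hybrid cells 36.9 ± 1.01, and it was called lower in hybrid cells than in EPSCs (-0.65). Hmga2, a chromatin protein known to lower Cdkn2a in neural stem cells, was at 25.7 ± 0.950 FPKM in hybrid cells, while EPSCs had 6.18 ± 1.72, ESCs 7.07 ± 0.212 and NSCs 13.1 ± 1.94. Myc, whose product can raise Ccnd2 and Cdk4, was at 36.4 ± 2.67 FPKM in NSCs, while ESCs had 22.5 ± 1.53, EPSCs 6.62 ± 0.216 and hybrid cells 10.6 ± 2.76. Between EPSCs and ESCs, 3 of the 15 were called higher and 2 lower, against 33.7% and 27.3% of all genes tested. Myc was among the lower, with a log2 fold change of -1.63.

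For each of the 10 genes the 3 tested genes with the nearest levels were found by the Euclidean distance of log2(FPKM + 1) over the 8 libraries. The nearest were Mest to Ccnd1 (distance 0.68), Fez1 to Ccnd2 (0.89), Bcas2 to Ccnd3 (0.61), Tpd52 to Ccne1 (0.35) and Pdxp to Ccne2 (0.45). For the kinases they were H3f3b to Cdk4 (0.49) and Piwil2 to Cdk6 (1.09), and for the inhibitors Ndrg2 to Cdkn1b (0.85), Anxa5 to Cdkn2a (0.83) and Rbm43 to Cdkn2b (0.44). The next were Maged1 (1.21) and Sept9 (1.29) for Ccnd1, Sdc3 (0.95) and Plat (1.24) for Ccnd2, and Uck2 (0.67) and Hprt (0.69) for Ccnd3. For the E-type cyclins they were Cul4b (0.79) and Sesn2 (0.79) for Ccne1 and Acaca (0.49) and Aamdc (0.61) for Ccne2. For the kinases they were Hnrnpa2b1 (0.61) and Ddx5 (0.64) for Cdk4 and Pglyrp1 (1.12) and Snhg11 (1.16) for Cdk6. For the inhibitors they were Gys1 (1.00) and Lmo4 (1.31) for Cdkn1b, Pccb (0.92) and Irak1 (0.94) for Cdkn2a, and Kank1 (0.78) and Rhod (0.81) for Cdkn2b. Anxa5, like Cdkn2a, was near its NSC level in hybrid cells in the levels as deposited. It was at 39.4 FPKM in NSCs, while hybrid cells had 31.6, EPSCs 14.2 and ESCs 15.3. Ndrg2 followed the order of Cdkn1b, with 50.8 FPKM in NSCs, while ESCs had 39.4, EPSCs 7.0 and hybrid cells 4.30.

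Some of the 10 genes overlap in their exons with genes on the opposite strand. The library kit keeps strand, but the strand setting of the counting is not given in the sources used here. Bysl, which overlaps Ccnd3, was at 15.7 FPKM in NSCs and 21.8 to 23.7 in the other groups. Tspan31, which overlaps Cdk4, was at 85.8 FPKM in NSCs and 48.1 to 56.5 elsewhere, and Ints8, which overlaps Ccne2, at 18.1 FPKM in NSCs and 31.6 in EPSCs. How far such reads enter the levels of Ccnd3, Cdk4 and Ccne2 was not tested.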

How the data were processed

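The authors trimmed reads of poly(A) libraries, mapped them with STAR 2.7.9a to mm10 and deposited FPKM per gene from Cuffnorm of Cufflinks 2.2.1, per the labels and the study's methods. The annotation, normalization option and strand setting are not given in the sources used here. FPKM is not a count, so log2(FPKM + 1) was tested with limma 3.58.1 in R 4.3.3, with 1 fit of 4 groups over all 8 libraries and genes with a mean of at least 1 FPKM in a group. The steps were tested on simulated data. The 10 genes and all gene lists were chosen with earlier results of these data known. Genes named were the 10 genes, up to 4 called genes of a list with the largest change in a comparison first, other list members picked with their values known, and the 3 nearest genes by distance. Genes overlapping in exons were named after their values were seen. Depth was derived from FPKM steps with an assumed fragment length of 200 nt, and floors cover counting error only. Alternatives were other pseudocounts, filters, scalings and fold rules, a replicate block, single pairs of groups and leaving out each library. Coordinates are GRCm38. Plots used matplotlib 3.10.9.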

Additional observations from a re-analysis of the deposited data

How the results depend on the processing

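Of the log2 fold changes of the 10 genes in 6 comparisons under the alternatives, 908 kept direction and side of the threshold. Another 18 turned in sign. Among these, Cdkn2b in hybrid cells against NSCs lost its call, and Cdk4 in ESCs against NSCs gained one. Without a turn in sign, 22 lost and 12 gained a call. Those that lost a call and the libraries behind it are given with each gene. Where the sign turned the cause was not tested. With every library scaled to a sum of 1000000, Cdkn2b turned to -0.0605 in hybrid cells against NSCs and -0.0426 in EPSCs against ESCs, and Cdk4 to -0.466 in ESCs against NSCs. Quantile normalization gave -0.454 for that Cdk4 value, and -0.0808 for Ccnd3 and -0.0854 for Ccne1 in EPSCs against ESCs. Leaving out single libraries gave ranges across 0 for Cdk4 in EPSCs against NSCs (-0.0974 to 0.0571) and in hybrid cells against EPSCs (-0.101 to 0.0540), and in hybrid cells against NSCs (up to 0.0221). In hybrid cells against EPSCs the ranges were -0.422 to 0.0636 for Ccnd1, -0.0213 to 0.293 for Ccnd3 and -0.472 to 0.162 for Cdk6, and in EPSCs against ESCs -0.0688 to 0.245 for Ccnd3 and -0.0852 to 0.0962 for Cdkn2b. None of these turned values was called except Cdk4 in ESCs against NSCs. In a fit of hybrid cells and EPSCs alone, 3388 of 11662 genes tested were called, instead of 5881 of 13239. A fit of ESCs and NSCs alone called 11463 genes instead of 11212. Why these counts moved was not tested. With a level and ratio over 2 instead of 3, the genes past the rule became 2 for hybrid cells against EPSCs, 4 for EPSCs against ESCs and 5 for hybrid cells against ESCs, and leaving out libraries gave 0 to 1 for the first. Scaling placed hybrid cells at 0.773 for Ccne1 and 0.391 for Cdkn2a.

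Libraries share replicate numbers, but the labels do not say that these pair them, and deviations of equal-numbered libraries correlated between -0.11 and 0.28. With a replicate block 8, 9 and 9 of the 10 genes were called in hybrid cells, EPSCs and ESCs against NSCs, 6 in hybrid cells against EPSCs, 6 in EPSCs against ESCs and 8 in hybrid cells against ESCs, the same counts as without it. All genes called moved from 5881 to 6060 in hybrid cells against EPSCs. At 2 libraries a group the exact test cannot pass 0.05. The lowest levels were 0.520 FPKM for Cdk6 in NSCs and 1.56 FPKM for Ccnd2 in ESCs. They lie close to the floors of 0.364 and 1.19 FPKM on the shortest transcripts of these genes. On their longest transcripts the floors are 0.0119 and 0.0216 FPKM, far below these levels.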
